A study of Mus musculus with 6 samples.

Results

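The genes described here are 10 genes of the endoplasmic reticulum (ER) unfolded protein response, namely Hspa5, Hsp90b1, Pdia4, Pdia6, Dnajb9, Dnajb11, Sdf2l1, Xbp1, Atf6 and Herpud1. They were taken by gene symbol from the 15118 genes of the deposited expression table, where each has 1 row. Expression was measured by RNA sequencing in 6 whole embryonic mouse hearts, from the Black-Swiss background and taken at E12.5. All 6 embryos carried Cre at 1 allele of Nkx2-5, a gene of cardiac progenitors and heart muscle, so that Cre acts mainly in those cells. The 3 control hearts (numbered 2, 5 and 9) were Hif1a WT/flox and the 3 mutant hearts (numbered 5, 8 and 10) were Hif1a Null/flox. HIF1, whose oxygen-sensitive subunit is the product of Hif1a, is a transcription factor of the response to low oxygen. The question addressed is how transcript levels differ in hearts with the mutant genotype. The labels name separate hearts and no more, and the p-values rest on how much these hearts vary.

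The ER folds and modifies proteins bound for membranes and for secretion. When unfolded proteins build up there, the sensors IRE1, ATF6 and PERK signal to the nucleus. IRE1 splices Xbp1 mRNA so that it encodes an active transcription factor, and ATF6 is cut in the Golgi to release another. Together they raise chaperones, disulfide isomerases and parts of ER-associated degradation, which moves misfolded proteins to the proteasome. PERK slows translation by phosphorylating eIF2alpha, which favours translation of the transcription factor ATF4. Other kinases that respond to amino acid shortage, haem shortage or double-stranded RNA act on eIF2alpha as well, so that ATF4 targets can rise without a load of unfolded protein. In the heart, muscle, endothelial and matrix-producing cells all need ER chaperones.

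Levels are given in RPKM, reads per kilobase of the gene's constitutive exons scaled to library size, which allows levels to be compared between genes. Changes are mutant minus control on log2(RPKM + 1), a scale that understates the change of low genes. They were tested with limma across all 13080 genes that reached 1 RPKM in at least 3 hearts, with Benjamini-Hochberg adjustment over all of them and a threshold of 0.05. The SE and p of each gene are moderated, since limma draws the gene's variance towards that of genes of similar level. All 10 genes passed this filter on low values.

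Of the 10 genes only Herpud1 passed the threshold, and it was higher in the mutant hearts. Of all tested genes 0.818% passed, 0.42% as higher and 0.398% as lower. These 107 genes became 52, 43 and 67 without control 2, 5 or 9, 198 without mutant 5 and 40 without mutant 10. The 7 ER folding factors and Xbp1 and Atf6 did not pass. At an unadjusted p under 0.05 Herpud1, Sdf2l1 and Atf6 were higher and none was lower, against 4.92% of all tested genes higher and 6.26% lower. The median log2 change was 0.16 over the 10 genes and -0.03 over all tested genes. Of the 10 values 9 were positive, as were 5567 of those of all 13080 tested genes. Without mutant 10 the median of the 10 genes was 0.072, and the Herpud1 call held.

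The sequences upstream of Herpud1 and of the 3 chaperone genes Hspa5, Hsp90b1 and Pdia6 are shown first because they hold the response elements by which this pathway is known. Each is the stretch of 250 bases before the RefSeq start of transcription (GRCm38.p6, the build also called mm10), written 5′ to 3′ on the strand of the gene. Capitals mark the outer letters of any match, on either strand, to 4 motifs. The ER stress response element (ERSE) is CCAAT, then 9 bases of any kind, then CCACG. The ERSE-II element is ATTGG, then 1 base, then CCACG. The UPR element bound by XBP1 was searched as TGACG followed at once by TGG, and the composite element of ATF4 and C/EBP proteins as TGATG, then 1 base, then AA. RefSeq windows were at hand for 9 of the 10 genes, all but Atf6.
Herpud1 (plus strand, chr8:94386179-94386428): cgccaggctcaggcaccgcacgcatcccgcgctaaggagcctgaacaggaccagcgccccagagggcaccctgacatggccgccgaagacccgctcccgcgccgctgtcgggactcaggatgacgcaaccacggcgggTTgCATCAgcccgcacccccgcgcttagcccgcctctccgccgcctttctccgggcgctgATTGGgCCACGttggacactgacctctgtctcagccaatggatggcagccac
Hspa5 (plus strand, chr2:34771840-34772089): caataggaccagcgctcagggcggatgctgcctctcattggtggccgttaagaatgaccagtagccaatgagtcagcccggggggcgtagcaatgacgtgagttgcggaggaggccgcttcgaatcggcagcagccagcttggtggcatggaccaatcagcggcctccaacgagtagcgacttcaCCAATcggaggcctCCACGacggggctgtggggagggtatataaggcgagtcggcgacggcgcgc
Hsp90b1 (minus strand, chr10:86705445-86705694): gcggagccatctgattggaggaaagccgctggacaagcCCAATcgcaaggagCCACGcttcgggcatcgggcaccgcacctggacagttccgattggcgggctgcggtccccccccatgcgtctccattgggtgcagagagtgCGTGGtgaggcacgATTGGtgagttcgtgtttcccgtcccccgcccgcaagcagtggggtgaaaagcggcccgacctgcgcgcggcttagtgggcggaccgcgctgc
Pdia6 (plus strand, chr12:17266339-17266588): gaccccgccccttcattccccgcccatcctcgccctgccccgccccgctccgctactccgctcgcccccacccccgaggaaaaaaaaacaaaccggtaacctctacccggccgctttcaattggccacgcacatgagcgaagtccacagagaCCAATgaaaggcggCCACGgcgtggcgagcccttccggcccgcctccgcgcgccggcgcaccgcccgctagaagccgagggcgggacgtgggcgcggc

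The Herpud1 window holds an ERSE-II from 52 to 42 bases before the start and, on the opposite strand, an ATF4 composite element from 112 to 105 bases before it. The ERSE of Hspa5 lies 65 to 47 bases before the start and that of Pdia6 98 to 80 bases before it. Hsp90b1 holds an ERSE on the gene's strand at 212 to 194 bases and another on the opposite strand at 107 to 89 bases. Herpud1 was thus the only one of the 9 genes with an ATF4 composite element, and no window held the UPR element. Across all 32851 windows of this length in the table, 0.113% held an ERSE, 0.0304% an ERSE-II, 3.45% an ATF4 composite element and 0.563% a UPR element. The windows of Pdia4, Dnajb9, Dnajb11, Sdf2l1 and Xbp1 held no match to these letters, which says nothing of elements spelled otherwise or lying elsewhere.

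Herpud1 (ENSMUSG00000031770, mm10 chromosome 8, 94386438 to 94395377, plus strand) encodes an ER membrane protein that helps assemble the degradation complex around the ubiquitin ligase HRD1. It measured 11.6, 11.9 and 12.8 RPKM in controls 2, 5 and 9 and 23.1, 22.8 and 24.0 RPKM in mutants 5, 8 and 10. Every mutant heart lay far above every control heart, and within each genotype the hearts lay close together. The means were 12.1 ± 0.672 RPKM (SD, n = 3) for controls and 23.3 ± 0.637 RPKM (SD, n = 3) for mutants, a ratio of 1.93. The log2 change was 0.89 ± 0.09 SE (limma adjusted p = 0.0021), and by p it ranked 19 among the tested genes.

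Sdf2l1 (chromosome 16, 17130138 to 17132383, minus strand), a small ER protein that works with Hspa5 and its J-domain partners, was the other gene whose genotypes did not overlap. It measured 8.25, 7.64 and 8.40 RPKM in controls 2, 5 and 9 and 11.1, 11.9 and 18.2 RPKM in mutants 5, 8 and 10. The mutant hearts differed more among themselves than the control hearts did, with mutant 10 well above the others. The means were 8.10 ± 0.404 and 13.7 ± 3.93 RPKM (SD, n = 3 each). The log2 change of 0.66 ± 0.17 SE did not pass over all genes (limma adjusted p = 0.15). All 3 mutant values lay above all 3 control values in 2 of the 10 genes, as in 7.6% of all tested genes.

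**Figure D1:**
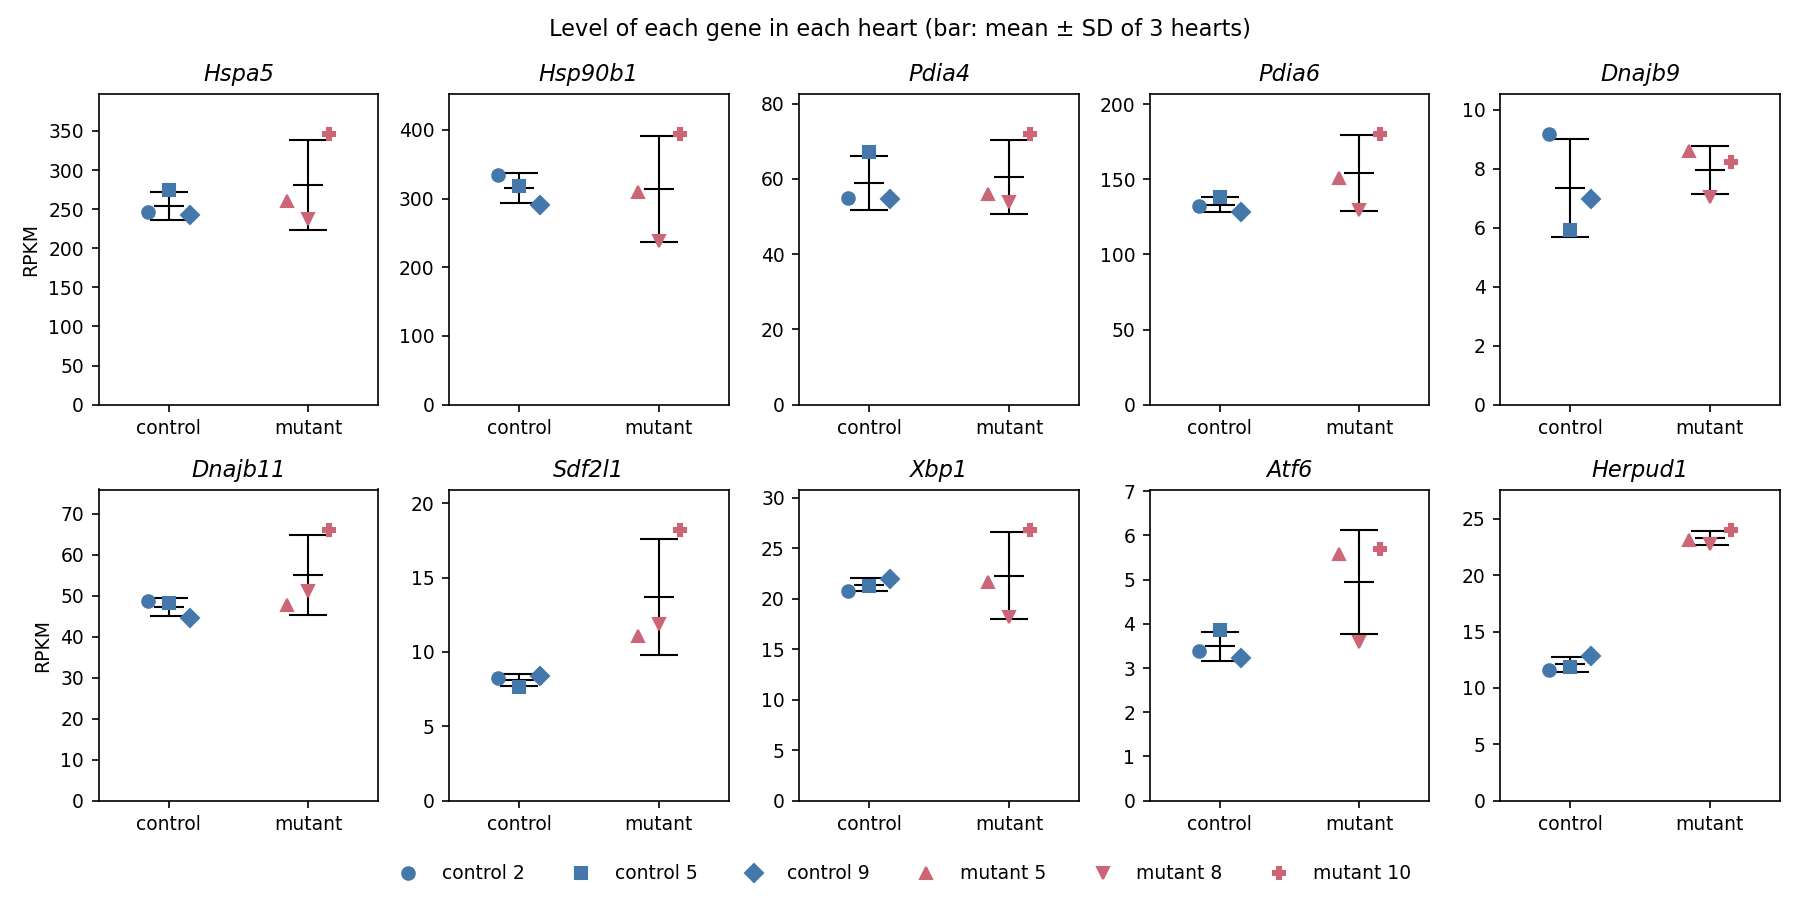
Level of each of the 10 genes (vertical axes, RPKM, starting at 0) in each heart, with controls 2, 5 and 9 in blue and mutants 5, 8 and 10 in red and a bar for the mean ± SD of 3 hearts. Herpud1 separates the genotypes with little spread (12.1 against 23.3 RPKM on average), while mutant 10 lies highest in 9 of the 10 panels.

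The most abundant of the folding factors, Hsp90b1 and Hspa5, did not differ beyond their spread. Hspa5 (chromosome 2, 34771970 to 34777547, plus strand) encodes BiP, the Hsp70 of the ER lumen, which binds unfolded chains and holds the sensors inactive. It measured 246, 275 and 243 RPKM in controls 2, 5 and 9 and 261, 237 and 346 RPKM in mutants 5, 8 and 10. Mutants 5 and 8 lay in or near the range of the control hearts, and mutant 10 above all others. The log2 change was 0.13 ± 0.14 SE (limma adjusted p = 0.77), with a 95% confidence interval from 0.874-fold to 1.36-fold.

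Hsp90b1 (chromosome 10, 86690209 to 86705509, minus strand) encodes GRP94, the Hsp90 of the ER lumen. It measured 334, 319 and 291 RPKM in controls 2, 5 and 9 and 309.5, 239 and 394 RPKM in mutants 5, 8 and 10. The control hearts lay between the lowest and the highest mutant heart. The log2 change was -0.03 ± 0.17 SE (limma adjusted p = 0.96, interval 0.756-fold to 1.27-fold). Its exons share 415 of 4032 bases with the pseudogene 1810014B01Rik on the opposite strand, and whether reads were counted by strand is not stated in the material used.

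The disulfide isomerases Pdia4 and Pdia6, which form and rearrange disulfide bonds, did not pass either. Pdia4 (chromosome 6, 47796141 to 47813430, minus strand) measured 54.8, 67.2 and 54.6 RPKM in controls 2, 5 and 9 and 56.0, 53.8 and 71.9 RPKM in mutants 5, 8 and 10. In each genotype 1 heart stood above the other 2, and the values overlapped throughout. Pdia6 (chromosome 12, 17266545 to 17284770, plus strand), which also acts on the sensors, measured 132, 138 and 128 RPKM in the controls and 151, 129.7 and 180 RPKM in the mutants. Mutants 5 and 10 exceeded all controls and mutant 8 did not. Exons of Pdia6 share 50 bases with Atp6v1c2 on the opposite strand. The intervals of the change were 0.830-fold to 1.26-fold for Pdia4 and 0.945-fold to 1.39-fold for Pdia6 (limma adjusted p = 0.94 and 0.59).

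The J-domain cochaperones, which deliver substrates to BiP and drive its ATPase, showed the same overlap of genotypes. Dnajb11 (chromosome 16, 22857845 to 22879634, plus strand), or ERdj3, measured 48.6, 48.3 and 44.6 RPKM in controls 2, 5 and 9 and 47.7, 51.2 and 66.0 RPKM in mutants 5, 8 and 10. Mutant 5 lay within the controls and mutant 10 far above. Dnajb9 (chromosome 12, 44205559 to 44210326, minus strand), or ERdj4, a known target of spliced XBP1, measured 9.18, 5.92 and 6.98 RPKM in the controls and 8.59, 7.05 and 8.24 RPKM in the mutants. Its highest and lowest values were both in control hearts. The intervals were 0.946-fold to 1.40-fold for Dnajb11 and 0.860-fold to 1.36-fold for Dnajb9 (limma adjusted p = 0.59 and 0.80).

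The genes of both transcription factors did not pass the threshold. Xbp1 (chromosome 11, 5520659 to 5525893, plus strand) measured 20.8, 21.3 and 22.0 RPKM in controls 2, 5 and 9 and 21.7, 18.2 and 26.8 RPKM in mutants 5, 8 and 10. The controls sat in a narrow band and the mutants on both sides of it (interval 0.837-fold to 1.27-fold, limma adjusted p = 0.93). A value for the whole gene does not separate spliced from unspliced Xbp1 mRNA, so it does not measure IRE1 activity. Atf6 (chromosome 1, 170704674 to 170867771, minus strand) measured 3.38, 3.85 and 3.23 RPKM in the controls and 5.57, 3.60 and 5.69 RPKM in the mutants. Mutants 5 and 10 lay above all controls while mutant 8 lay among them, and the log2 change of 0.39 ± 0.15 SE had a limma adjusted p = 0.38.

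**Figure D2:**
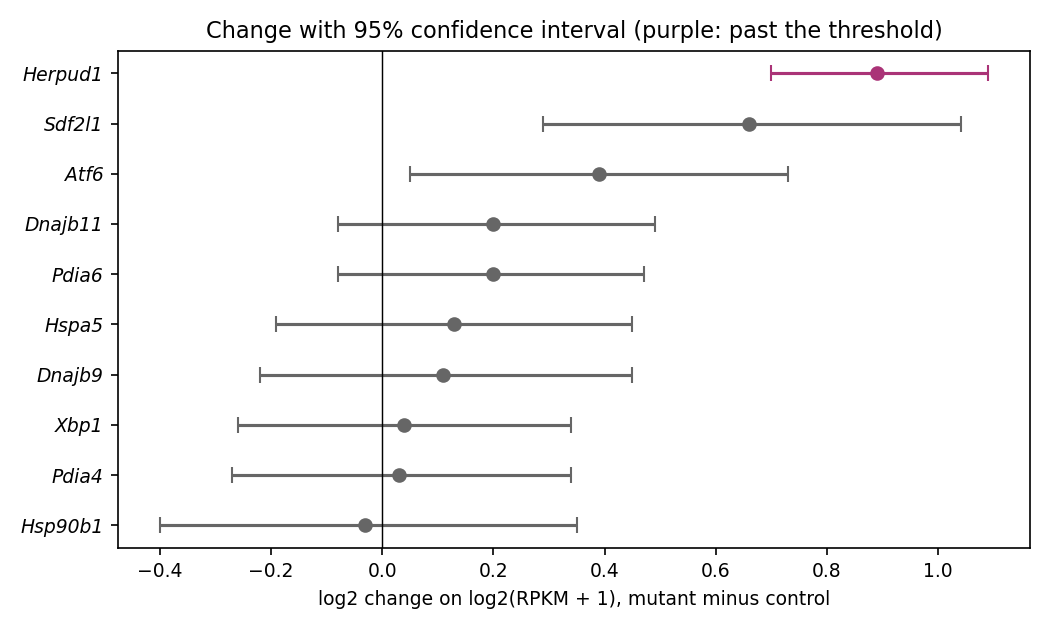
Log2 change of each gene on log2(RPKM + 1), mutant minus control (horizontal axis), with its 95% confidence interval from limma. Herpud1 (0.89) is the gene past the threshold, the intervals of Sdf2l1 and Atf6 also lie above 0, and those of the other 7 genes include 0.

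By level in the control hearts the order was Hsp90b1, Hspa5, Pdia6, Pdia4, Dnajb11, Xbp1, Herpud1, Sdf2l1, Dnajb9 and Atf6, from 315 to 3.49 RPKM. Of the neighbours in this order the control values of Sdf2l1 and Dnajb9 overlapped, and those of the other pairs did not. In the mutant hearts the values of Herpud1 (23.3 ± 0.637 RPKM) and Xbp1 (22.3 ± 4.30 RPKM) overlapped between hearts. Herpud1 was the higher in mutants 5 and 8 and Xbp1 in mutant 10. The values of Hsp90b1 and Hspa5, and of Pdia4 and Dnajb11, also overlapped between hearts. Within each mutant heart, though, Hsp90b1 lay above Hspa5 and Pdia4 above Dnajb11. Xbp1 in mutant 8 and Sdf2l1 in mutant 10 both measured 18.2 RPKM, while Xbp1 was the higher of these genes within each mutant heart.

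Given the rise of Herpud1, its ratio to a gene with overlapping levels is also shifted, so the ratios are a description only. As a share of the Hspa5 level it was 4.70%, 4.32% and 5.30% for controls 2, 5 and 9 and 8.86%, 9.65% and 6.95% for mutants 5, 8 and 10. For this ratio the exact two-sided permutation test gave p = 0.1, the smallest that 3 against 3 hearts allow (0.11 adjusted over 9 ratios). The ratio to Sdf2l1 overlapped between genotypes, with 149 ± 8.12% in control and 177 ± 40.4% in mutant hearts (exact permutation p = 0.4).

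Mutant 10 had the highest level of most of these genes. It was the highest heart for 9 of the 10, Dnajb9 being the exception, and lay above all controls in 9. Mutant 5 lay above all controls in 4 genes, while mutant 8 lay above them in 3 and below them in 4. How often each heart held these ranks over all tested genes was not counted. The median deviation of the 7 folding factors (all but Xbp1, Atf6 and Herpud1) from the control mean, on log2(RPKM + 1), was 0.04 in mutant 5, -0.04 in mutant 8 and 0.44 in mutant 10. The control hearts lay between -0.07 and 0.04. Over all tested genes these medians lay between -0.07 and 0.04 in every heart. Herpud1 did not follow this pattern, with deviations of 0.88, 0.87 and 0.94 in mutants 5, 8 and 10. As a description over 6 hearts, Pearson's r of a gene's log2 values with the mean standardised profile of the other 9 was 0.99 for Pdia6, 0.91 for Hspa5, 0.51 for Herpud1 and 0.28 for Dnajb9. The points share the library of each heart.

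**Figure D3:**
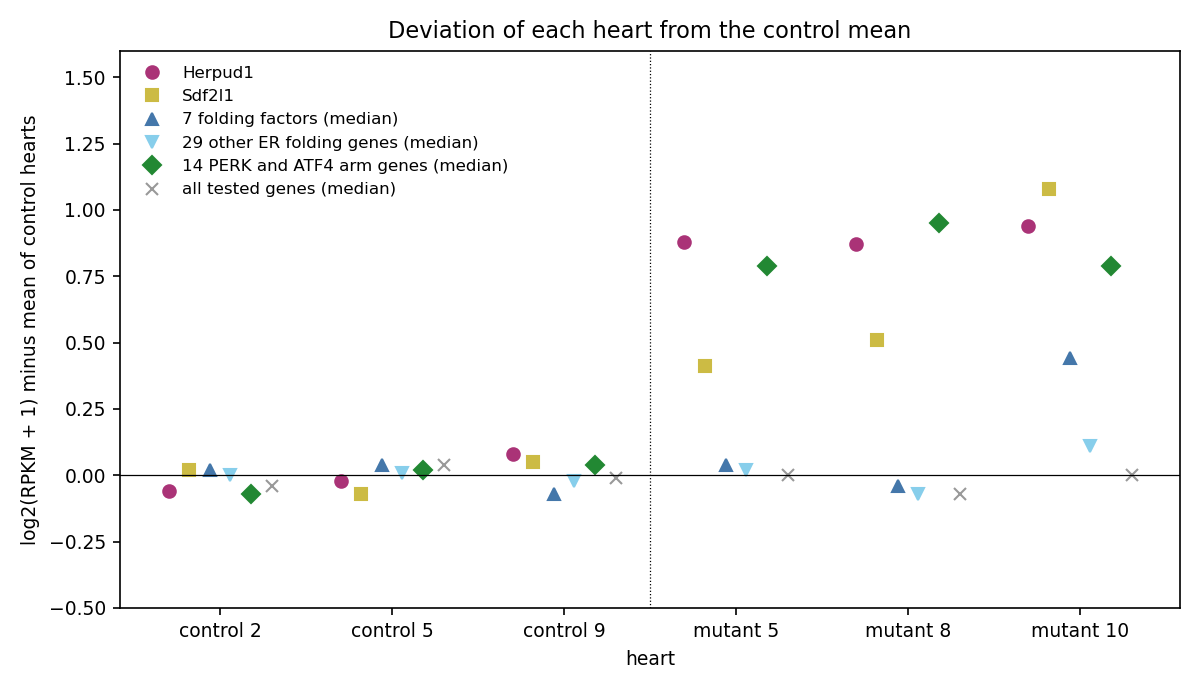
Deviation of each heart from the mean of the control hearts on log2(RPKM + 1) (vertical axis), for Herpud1, Sdf2l1 and the medians of 4 sets of genes, with 1 column of points for each heart. Herpud1 (0.87 to 0.94) and the median of the PERK and ATF4 arm (0.79 to 0.95) are raised in all 3 mutant hearts. The height of that median depends on which genes were listed, since their log2 changes run from -0.03 (Ppp1r15b) to 2.58 (Trib3). The median of the 7 folding factors is raised in mutant 10 alone (0.44). Sdf2l1, which is among the 7, is raised in mutants 5, 8 and 10 (0.41, 0.51 and 1.08).

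Without mutant 10 the log2 changes were -0.032 for Hspa5, -0.207 for Hsp90b1, -0.094 for Pdia4, 0.077 for Pdia6, 0.067 for Dnajb11 and -0.095 for Xbp1. Hspa5, Pdia4 and Xbp1 thereby changed sign, none of them past the threshold with or without this heart. Herpud1 kept a change of 0.873 (limma adjusted p = 0.021), and Sdf2l1 had 0.456 (limma adjusted p = 0.26). Summed levels of other chaperones were also highest in mutant 10. The summed RPKM of 12 cytosolic heat shock genes was 2747 there and 1996 to 2352 in the other hearts, and none of the 12 passed in limma (1 higher at an unadjusted p under 0.05, median log2 change 0.07). That of 30 further ER folding genes was 1731 there and 1403 to 1477 in the other hearts. Abundant genes carry such sums, and the median deviation in mutant 10 was 0.27 for the cytosolic genes and 0.11 for the 29 tested ER folding genes.

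Markers of other cell types also differed by heart, and their part in these results was not tested. The summed RPKM of 13 macrophage markers was 43.6 to 52.0 in control hearts and 37.4, 33.0 and 15.4 in mutants 5, 8 and 10. No marker named here was listed at 0, and of 12 tested none passed in limma, 10 had an unadjusted p under 0.05 and 9 had all mutant values below all control values, as in 9.43% of tested genes. Of 12 fibroblast, epicardial and matrix markers, whose sums were 1004 to 1147 in control and 799 to 1045 in mutant hearts, none passed and 5 were lower at an unadjusted p under 0.05. Of 10 endothelial markers (147 to 173 and 136 to 161) none passed and 3 were lower by that measure. Without mutant 5, 3 macrophage markers and 1 endothelial marker passed, and without mutant 8, 2 matrix markers did. In whole hearts fewer cells of a type and less RNA per cell cannot be told apart. Of the heart muscle markers, the cardiac troponin T gene Tnnt2 lay between 2582 and 3044 RPKM and the transcription factor gene Nkx2-5 between 14.8 and 27.8 RPKM, which fits the labelled tissue. The liver marker Afp was at or below 2.55 RPKM. Of 12 heart muscle markers 1 passed in limma, the natriuretic peptide gene Nppa, which was higher in mutants. At an unadjusted p under 0.05, 3 of the 12 were higher and 0 lower, namely Nppa, Myl7 and Actc1, each with all mutants above all controls. None of the 12 passed without control 2, control 5 or mutant 10. Of 10 tested erythroid markers none passed and 2 were lower at an unadjusted p under 0.05, while 2 passed without mutant 5. The 1 tested liver marker, Apoa2, did not pass. It was higher at an unadjusted p under 0.05, with overlapping values (1.42 ± 0.491 RPKM in controls and 2.22 ± 0.325 RPKM in mutants).

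The other genes of the pathway were read from lists of ER folding, degradation, translocation and sensing. Of 29 further ER chaperones and folding enzymes tested in limma none passed, 4 were higher and 1 lower at an unadjusted p under 0.05, and the median log2 change was 0.00. All mutant values lay above all control values in 6 of the 29 and below them in 1. Over all tested genes these shares were 7.6% and 9.43%. The 6 were Hyou1, Creld2, Manf, Fkbp2, Fkbp11 and Serpinh1, and the 1 was Prdx4. Of the 29, the 4 with the smallest p were Prdx4, Hyou1, Fkbp2 and Creld2. The ER peroxiredoxin Prdx4 averaged 73.1 ± 7.80 RPKM in controls and 56.6 ± 6.35 RPKM in mutants (SD, n = 3 each). The BiP nucleotide exchange factor Hyou1 measured 14.8 ± 1.33 and 18.8 ± 3.35 RPKM, and the secreted ER stress marker Creld2 20.1 ± 0.811 and 27.7 ± 8.09 RPKM. Creld2 was 20.8, 20.2 and 19.2 RPKM in controls 2, 5 and 9 and 23.2, 23.0 and 37.1 RPKM in mutants 5, 8 and 10. All mutants lay above all controls, with mutant 10 highest. Calr, the lectin chaperone calreticulin, measured 241 ± 8.43 and 256 ± 57.5 RPKM.

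Of 23 tested genes of ER-associated degradation, the pathway in which Herpud1 acts, none passed in limma, and 2 were higher and 0 lower at an unadjusted p under 0.05, with a median log2 change of 0.03. All mutant values lay above all control values in 3 of the 23 and below them in 0. Selenos (listed as Vimp), which recruits the ATPase VCP to the ER membrane, averaged 22.6 ± 0.877 RPKM in controls and 27.2 ± 1.58 RPKM in mutants. Aup1 measured 17.2 ± 1.99 and 20.9 ± 2.00 RPKM. Herpud2, the paralogue of Herpud1, averaged 3.16 ± 0.137 RPKM in controls and 3.09 ± 0.0731 RPKM in mutants, with overlapping values (log2 change -0.02, limma adjusted p = 0.94).

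None of 24 genes of the translocon, signal peptidase and signal recognition particle passed in limma, and 0 had an unadjusted p under 0.05 (median 0.05). None of 14 tested UPR sensors and processing genes passed, and 1, Wfs1, was higher at an unadjusted p under 0.05 (median -0.03). All mutant values lay above all control values in 3 of the 24 genes and 2 of the 14, and below them in 0. Wfs1, an ER membrane glycoprotein, averaged 5.23 ± 0.510 RPKM in controls and 6.56 ± 0.677 RPKM in mutants. The gene of IRE1, Ern1, measured 1.17 ± 0.129 and 1.26 ± 0.123 RPKM. The gene of PERK, Eif2ak3, measured 2.60 ± 0.255 and 2.33 ± 0.198 RPKM, with overlapping values.

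In the arm of PERK and ATF4, 10 of 14 tested genes passed the threshold in limma, all higher, and the median log2 change was 0.86. Without mutant 10, 5 of them passed. That ATF4 targets are higher in these mutant hearts was known when this list was written, so it is no independent evidence. Atf4 measured 29.5, 33.5 and 29.7 RPKM in controls 2, 5 and 9 and 56.5, 62.3 and 57.1 RPKM in mutants 5, 8 and 10. Like Herpud1, it was raised to a similar level in each mutant heart, with a log2 change of 0.90 ± 0.09 SE against 0.89 ± 0.09 SE. Ddit3, the stress-induced transcription factor CHOP, rose from 4.51 ± 0.489 to 18.4 ± 1.47 RPKM, and Ppp1r15a, the phosphatase subunit that reverses eIF2alpha phosphorylation, from 3.88 ± 0.378 to 6.99 ± 0.317 RPKM. The 4 tested genes that did not pass were Cebpg, Atf3, Vldlr and Ppp1r15b.

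**Figure D4:**
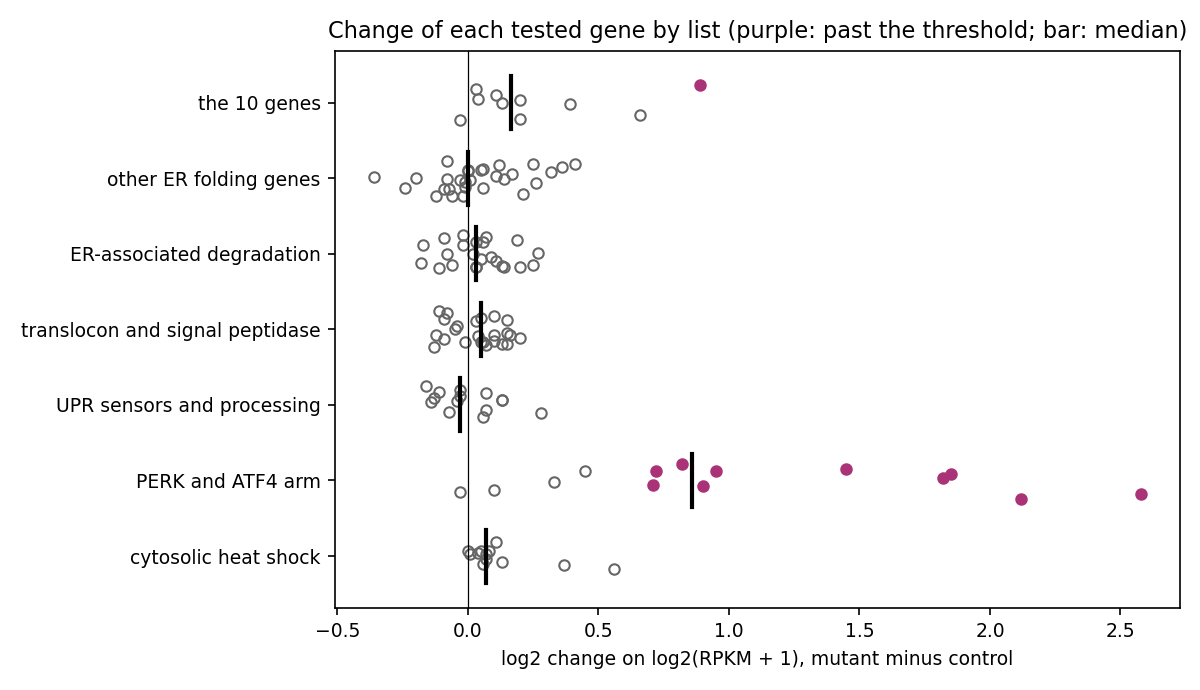
Log2 change of every tested gene of 7 lists on log2(RPKM + 1), mutant minus control (horizontal axis), with genes past the threshold in purple and a bar for each list's median. Among the 10 genes only Herpud1 is purple. In the lists of ER folding, degradation, translocation and sensing no gene is purple, while 10 of 14 genes of the PERK and ATF4 arm are.

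The genes whose pattern over the 6 hearts was most like the mean standardised profile of the 10 genes, among 9195 genes whose mean on log2(RPKM + 1) was 2 or more, were Sec13, Leprel1, Dync1li1, Cct7, Snap23, Lamp1, Ddx21, AC164548.1, Thoc6 and Hspd1. Pearson's r ran from 0.985 for Sec13, a subunit of the COPII coat, to 0.966 for Hspd1, the mitochondrial chaperonin, and 24 genes exceeded 0.95. None of these 10 passed the threshold. Sec13 measured 60.5 to 61.8 RPKM in control hearts and 63.0, 59.8 and 70.5 RPKM in mutants 5, 8 and 10, so its profile too is that of a high mutant 10.

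The steps between low values imply 101500000 to 159300000 reads for each heart, and by exon length at least 1200 reads for each gene in each heart (Sdf2l1 lowest), for a counting SD of at most 2.94%. Hif1a measured 61.1, 46.4 and 46.4 RPKM in controls 2, 5 and 9 and 75.7, 55.0 and 77.7 RPKM in mutants 5, 8 and 10 over its constitutive exons together, which does not check the deletion. On the first principal component of all tested genes, which held 45.3% of the variance, the extreme hearts were control 2 and mutant 8. The summed RPKM of 27 rows of 5S ribosomal RNA was also lowest in control 2 (10.2) and highest in mutant 8 (184). Whether this library difference bears on the 10 genes was not tested. Control 9 and mutant 8 lacked expression of the chromosome Y gene Eif2s3y. Herpud1 passed the threshold without control 2 and mutant 8 (limma adjusted p = 0.0086) and without control 9 and mutant 8 (limma adjusted p = 0.017).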

How the data were processed

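Libraries from the total RNA of each heart followed Illumina protocols, per the labels. The submitters' processing notes name Trim Galore, TopHat2 and mm10. The counter, its annotation and its use of strand are not given in the sources used. The authors deposited linear RPKM values per gene over constitutive exons. The file names no unit. It was read from the values, since for single-exon genes the product of value and length was a whole number of steps (within 0.1 of a step, up to 100 steps) for 88.4% to 90.3% of low values in each library, against 19.3% to 19.8% (medians) for other steps. No pair of libraries was identical, and the table has no 0.

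Changes came from limma 3.58.1 in R 4.3.3 on log2(RPKM + 1), with its trend option, all 6 hearts, no covariates, at least 1 RPKM in at least 3 hearts (13080 genes tested, 2038 not), two-sided, Benjamini-Hochberg over all tested genes. The fit was tested on simulated data. Motif searches ran in Python 3.11.15, and matplotlib 3.10.9 drew the plots. Gene positions come from GENCODE M21 and upstream sequences from RefSeq (GRCm38.p6).

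The 10 genes, the lists and the tests were chosen with earlier results of these data known. Named are all 10 genes, Atf4, Ddit3 and Hif1a, up to 4 genes of smallest p from each list, and the 10 genes of most like profile. Calr, Ern1, Eif2ak3, Herpud2, Ppp1r15a, Sec13's values, markers and others given beside them were chosen after their values were seen. Alternatives were median centring, rescaling without 8 haemoglobin genes, no filter, a minimum of 5 RPKM, pseudocounts of 0.1 and 5, no trend, leaving out each heart, and 2 sets of 4 hearts added after seeing the data.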

Additional observations from a re-analysis of the deposited data

How the results depend on the processing

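Over 15 alternatives Herpud1 kept its call in all, with log2 changes of 0.729 to 0.95 and limma adjusted p of 0.00086 to 0.025, and no other of the 10 genes gained one (Atf6 was not tested at a minimum of 5 RPKM). Sdf2l1 came nearest without mutant 5 (limma adjusted p = 0.055) and Atf6 without mutant 8 (0.073). The median of the 10 genes ran from 0.072 without mutant 10 to 0.287 without control 2 and mutant 8. Genes past the threshold numbered 107, and 40 (without mutant 10) to 198 (without mutant 5) on leaving out a heart, with 52, 43 and 67 without control 2, 5 or 9. After median centring 91 passed, 57 higher and 34 lower, against 55 and 52 before. Leaving out a heart gave 5 to 8 genes of the PERK and ATF4 arm, against 10, with 5 without mutant 10. It gave 0 to 1 of the heart muscle, 0 to 3 of the macrophage, 0 to 1 of the endothelial, 0 to 2 of the erythroid and 0 to 2 of the fibroblast markers. A minimum of 5 RPKM, which tests 7320 genes, left 6 of the PERK and ATF4 arm. In the 4 hearts without control 2 and mutant 8 that arm had 6, heart muscle 0 and fibroblast markers 1. In the 4 hearts without control 9 and mutant 8, where 53 genes passed in all, they had 6, 0 and 1. Signs changed in 14 values of named genes, none past the threshold. On leaving out a heart Hspa5 ran from -0.032 to 0.241, Hsp90b1 from -0.207 to 0.152 (0.014 without control 2), Pdia4 from -0.094 to 0.132 (-0.012 without control 2, -0.015 without control 9), Dnajb9 from -0.013 (without control 5) to 0.265, Xbp1 from -0.095 to 0.17, Hspa1a from -0.055 (without control 2) to 0.29 and AC164548.1 from -0.004 to 0.154. The negative ends of Hspa5, Pdia4, Xbp1 and AC164548.1 are without mutant 10. Hsp90b1 was 0.005 after median centring and 0.195 and 0.097 in the sets of 4 hearts, and Hspa1a -0.035 in the 4 without control 2 and mutant 8. The cause was not tested. No paired analysis was possible because the genotypes share 1 sample number. Apart from these, direction and call were kept by 957 values of named genes. A call appeared in 10 and was lost in 5, all Nppa. These counts of named genes leave out Ppp1r15a and the others chosen after their values were seen. They also leave out a gene wherever it did not pass the filter on low values. Calls lost in the PERK and ATF4 arm are therefore not all among them. With 3 hearts per genotype the spread between hearts limits what can be seen. Where that spread was small, as for Herpud1 in both genotypes and Sdf2l1 in controls, counting error is part of it. In mutant hearts Sdf2l1 had a wide spread (13.7 ± 3.93 RPKM, SD, n = 3).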

Other observations

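Genes that carry the same upstream motifs elsewhere in the genome were read in the same fit. Of 22 tested genes with an ERSE or ERSE-II in the 250 bases before the RefSeq start, 1 passed in limma, Herpud1, and 18 others outside the 10 genes included Calr, Canx, Creld2, Dnajc3 and Syvn1, none of them past the threshold, with a median log2 change of -0.03. At an unadjusted p under 0.05 Creld2 was higher and Adcy3 lower among these 18. Of 209 tested genes with an ATF4 composite element there, 11 passed, all higher, or 5.26%, against 0.832% of the 8889 tested genes with a window in the table. Besides Herpud1 they were Aars, Asns, Chac1, Gars, Hax1, Jdp2, Nupr1, Pck2, Pycr1 and Rbp4, named after their values were seen. With Herpud1 left out, 10 of 208 passed, or 4.81%. The median log2 change over those 209 genes was -0.02, close to that of all tested genes, so most carriers of these letters did not stand apart. Of 79 tested genes with the UPR element none passed. A match to these letters is a description of the sequence and not evidence of binding.

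Derl3, a degradation factor of the ER membrane known as an XBP1 target, did not pass the filter on low values and was not tested. It measured 0.502, 0.457 and 0.504 RPKM in controls 2, 5 and 9 and 0.887, 0.686 and 1.83 RPKM in mutants 5, 8 and 10, named after its values were seen. The cytosolic chaperone Hsph1 was likewise highest in mutant 10, with 16.6 RPKM against 7.36 to 8.67 RPKM in the other hearts.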
